A study of Mus musculus with 3 samples.

Results

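The ADP-ribosyltransferases of the interferon response were followed as 9 mouse genes: Parp3, Parp8, Parp9, Parp10, Parp11, Parp12, Parp14, Zc3hav1 and Dtx3l. They were taken by their gene name on the array, and every probe that carried one of these names was kept. This gave 23 probes of 56605, under 9 of the 36870 gene names on the array. RNA of RAW264.7 cells, a macrophage line from a mouse transformed with Abelson leukaemia virus, had been hybridised to 1-colour Agilent expression arrays, with 1 array for each of 3 groups. In the first group the macrophages received only lipopolysaccharide (LPS), a part of the outer membrane of Gram-negative bacteria and the ligand of TLR4, for 3 h. In the other 2 groups the cells were first given LOC1 or LOC3, strains of Lactiplantibacillus plantarum isolated from tea leaves, and then the same LPS stimulation for 3 h. The labels place the lactobacilli 12 h before LPS, the published methods give a longer time, and the sources also differ on the dose of LPS. The array of unchallenged macrophages was not analysed here, and enters only through the log2 ratios that the authors deposited against it.

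ADP-ribosyltransferases move ADP-ribose from NAD+ onto proteins or nucleic acids, and most members of the PARP family attach a single unit rather than a chain. Many of them are interferon-stimulated genes, which means that type I interferon, through its receptor, turns the gene on by way of a promoter element called the ISRE. In macrophages they are known for restricting viruses, through binding of viral RNA, modification of viral and host proteins, or shutdown of translation, and some viruses carry a macrodomain that removes the mark again.

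With 1 array per group there was no replicate of any culture, so no test between groups could be made and every difference compares single arrays. The noise of the measurement was taken from probes that the array prints as 10 spots each. The variance among the spots of such a probe within each array was summed over both arrays of a comparison. The technical SD of a log2 difference that follows was 0.057 for LOC1 + LPS against LPS and 0.064 for LOC3 + LPS against LPS, over 269 brighter probes. For dim probes, more than 1 log2 unit under the 75th percentile of the array, it was 0.27 and 0.33, over only 10 probes. This SD holds only spot noise within an array. It leaves out labelling, hybridisation and other differences between arrays, and the spread between cultures. A difference beyond 2 technical SDs need not exceed those. Intensities were compared after dividing by the 75th percentile of each array, which was 555 with LPS, 513 with LOC1 + LPS and 516 with LOC3 + LPS. A value was called well above background by the scanner software, and 51.9%, 50.4% and 47.8% of probes were so called on the 3 arrays. A difference was called changed at 2-fold or more, the threshold of the study, on the log2 scale a value of 1 or more in size. Because the cells were measured in bulk, fewer cells that make an RNA and less of that RNA per cell cannot be told apart.

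The macrophage markers Adgre1, Cd68, Csf1r, Itgam, Lyz2, Mrc1 and Cd14 were well above background with LPS in 7 of 7 cases. Of the 16 markers of T cells, B cells, epithelium, fibroblasts and neutrophils, 9 were well above background with LPS, among them Cd4 at an intensity of 895 and Cd3e at 396, while Cd3g, Cd8a, Cd79a, Krt8, Cdh1 and Ly6g were among those that were not.

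Of the 23 member probes, 21 were well above background on all 3 arrays, and the remaining 2, both of Parp8, on none. Probes of a gene are lettered here by their intensity with LPS, so that probe a of a gene is its brightest.

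**Figure D1:**
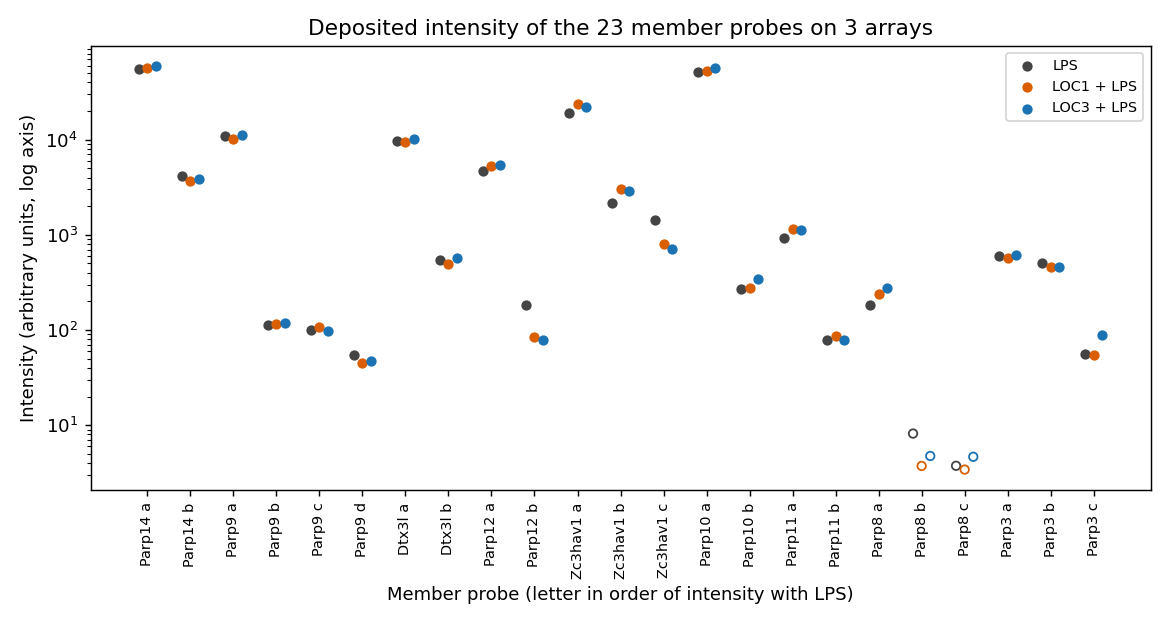
Deposited intensity of each of the 23 member probes on a log axis, 1 point per array, in grey for LPS, orange for LOC1 + LPS and blue for LOC3 + LPS. Filled points were well above background and open points (Parp8 b and Parp8 c) were not; among the filled points, Parp12 b and Zc3hav1 c are the ones with both lactobacilli arrays clearly below LPS.

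In macrophages stimulated with LPS, every one of the 9 genes was listed at a higher level than in unchallenged cells, by between 1.53 and 5.18 on the log2 scale. The deposited table listed 16 of the 23 probes, all 16 as higher and 0 as lower. Over the array 9.7% of gene names had a probe listed as higher, and 7.08% of probes were listed as higher. Of those well above background with LPS the shares were 13.6% of gene names and 10.3% of probes. The table left blank the values under 2-fold, and it does not hold the other 7 member probes, for which no ratio can be given. The median of the listed member ratios was 2.77, beside a median of 1.66 over all probes listed as higher.

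Parp14, Parp9 and Dtx3l neighbour each other on chromosome 16. Parp14 is a mono-ADP-ribosyltransferase with macrodomains that acts in IL-4 and interferon signalling in macrophages. Its probe a (mm9 chr16:35832992-35833051, minus strand) carried the highest ratio of the members, 5.18 with LPS, which is 36.3-fold. With LOC1 + LPS the ratio was 5.36 and with LOC3 + LPS 5.42, so the 3 arrays lay within 0.24 of each other. Dtx3l, the E3 ubiquitin ligase that pairs with PARP9, was listed by both of its probes. Probe a (mm9 chr16:35926655-35926714, minus strand) had ratios of 3.92, 4.06 and 4.15 with LPS, LOC1 + LPS and LOC3 + LPS. Probe b (mm9 chr16:35932352-35932411, minus strand) had 3.89, 3.91 and 4.10, and the probes of Dtx3l thus gave 15.1-fold and 14.8-fold with LPS. Parp9, which recognises ADP-ribose through its macrodomains and works as a complex with Dtx3l, was listed by 2 dim probes. Probe c (mm9 chr16:35968243-35968302, plus strand) had a ratio of 2.27 with LPS. Probe b (mm9 chr16:35947587-35947647, plus strand) had 4.66, but the intensity that this implies for unchallenged cells was 4.50, below the lowest intensity of 16.3 that was well above background on the LPS array. Set against that limit, Parp9 b was at least 6.95-fold higher with LPS. The brightest Parp9 probe is one of those the table does not hold.

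Zc3hav1 and Parp12 are the members with CCCH zinc fingers. Zc3hav1, also called ZAP, binds CpG-rich viral RNA and directs its decay although its own transferase domain is inactive. Its 3 probes had ratios of 1.90 (a), 2.26 (b) and 2.45 (c) with LPS, that is between 3.72-fold and 5.46-fold. Parp12, which attaches single ADP-ribose units and restricts several RNA viruses, had a ratio of 3.33 by probe a, which is 10.1-fold. Parp12 b had 4.26, but with an implied unchallenged intensity of 9.64 this too is a bound, at least 11.3-fold.

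Among the remaining transferases, Parp10 had the highest ratios. This enzyme modifies host kinases and other proteins with single units. Its probe a (mm9 chr15:76063433-76063492, minus strand) was at 3.09 with LPS and probe b (mm9 chr15:76063393-76063452, minus strand) at 3.41. These 2 probes are not independent, since they overlap by 20 bases, printed here to show what they share.

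shared bases of Parp10 a and Parp10 b: ataaacctgtacttgaaacc

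Parp8, a family member whose role is less well described, was at 2.43 by probe a, with 2.95 after LOC1 and 3.16 after LOC3. Parp11, which modifies proteins with single units and has a WWE domain, was at 2.03 by the dim probe b. Parp3, best known for its part in the repair of DNA breaks, had the lowest ratios, 1.67 by probe b and 1.53 by the dim probe c. With LOC1 + LPS and LOC3 + LPS all 16 probes were listed as well, the lowest ratio being that of Zc3hav1 c after LOC3, 1.58.

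**Figure D2:**
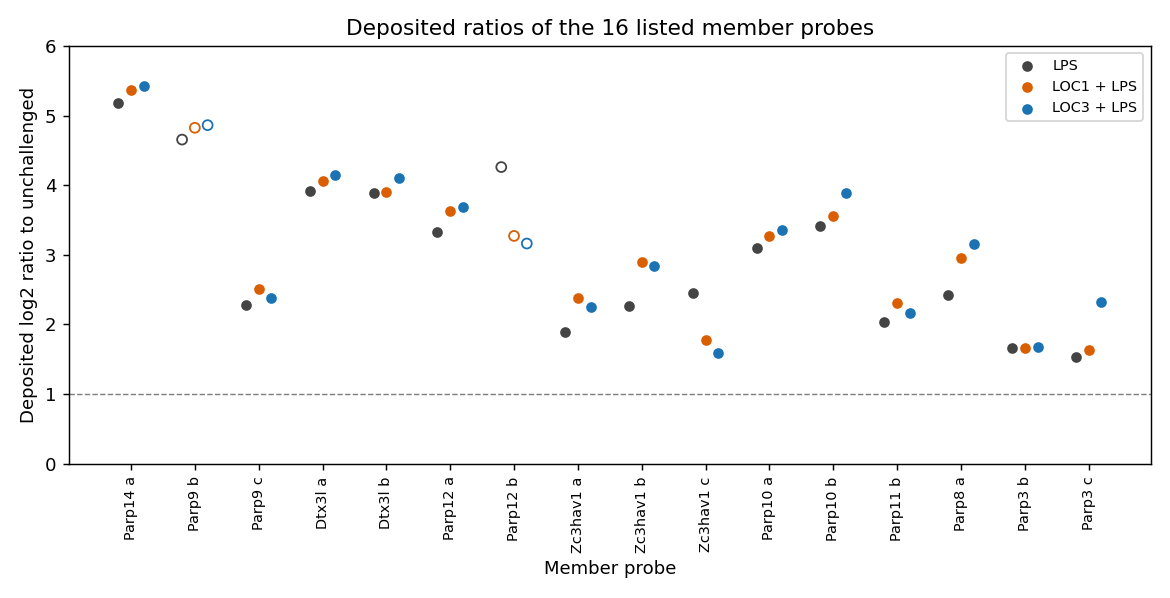
Log2 ratio to unchallenged macrophages deposited by the authors, for the 16 member probes listed, 1 point per array; the dashed line marks 2-fold, and open points mark the 2 probes (Parp9 b, Parp12 b) whose implied unchallenged intensity lay below the limit of 16.3. All points lie above the line, from 1.53 for Parp3 c with LPS to 5.42 for Parp14 a with LOC3 + LPS.

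The enzymes of the same family that are not members were mostly not listed. Of 8 other ADP-ribosyltransferases, 1 was listed as higher with LPS and 1 as lower. Tiparp, a mono-ADP-ribosyltransferase induced by the aryl hydrocarbon receptor, was at 1.48, and Parp1, the main poly-ADP-ribose polymerase of the DNA damage response, was at -1.15. With LPS alone no ratio was listed for Parp2, Parp4, Parp6, Parp16, Tnks or Tnks2. Of 10 readers and erasers of ADP-ribose, Macrod2 was listed as higher, by a probe without a signal well above background, and Oard1 as lower at -1.38. Of 12 genes of NAD supply and use, 4 were listed as higher and 3 as lower. Nampt, the rate-limiting enzyme of NAD salvage, was at 2.49, and Bst1, an ectoenzyme that consumes NAD, at 1.38. Among 4 partners of the antiviral members 3 were listed as higher, Trim25 (the ubiquitin ligase that ZAP needs) at 3.66, N4bp1 at 2.28 and Rnf114 at 1.90. The 5 reference interferon-stimulated genes Ifit1, Isg15, Mx1, Rsad2 and Usp18 were all listed as higher, between 7.76 and 12.28, and so above the highest ratio of any member; for 2 of their probes the implied unchallenged intensity lay below the limit.

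The genes next to the members were read from the RefSeq gene order, a choice made after the values were seen. Of the 6 neighbours of the Parp14, Dtx3l and Parp9 locus, Dirc2 was listed as higher, at 1.03. Of the 10 genes around Zc3hav1 and Parp12 on chromosome 6, 0 were listed as higher and 3 as lower. One of those 3 was Zc3hav1l, which resembles the zinc finger part of Zc3hav1, at -2.50, from a dim probe.

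Promoters were examined for the ISRE, searched as a pair of GAAA blocks with any NN between them, and for the interferon-gamma activated element GAS, searched as TTCNNNGAA, on both strands of RefSeq windows from 250 bases before to 50 bases after the gene start. Of the 32851 windows in the GRCm38.p6 table, 3.44% held the first and 8.3% the second. The table held 7 windows of 6 members, and it did not list Parp9, Parp10 or Parp14. The first of the Parp11 windows held both motifs, and the other 6 windows held neither. The 250 bases before that Parp11 start (GRCm38.p6 chr6:127446590-127446839, plus strand) are given because they carry the only matches; the capitals mark the ISRE, on the minus strand 44 bases before the start, run together with the overlapping GAS.

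Parp11 upstream: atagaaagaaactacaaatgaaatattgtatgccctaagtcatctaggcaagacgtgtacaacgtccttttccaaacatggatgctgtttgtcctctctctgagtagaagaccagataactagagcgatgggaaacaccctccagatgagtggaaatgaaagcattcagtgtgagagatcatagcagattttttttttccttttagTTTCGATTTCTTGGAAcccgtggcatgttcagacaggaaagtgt

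These matches describe letters in a window and are no measure of binding.

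The next comparison asked whether either strain, given before LPS, left the members at another level than LPS alone. By the brightest probe of each gene, 0 of 9 members were past 2-fold with LOC1 and 0 of 9 with LOC3. Over all genes, 2.49% reached 2-fold upwards and 3.81% downwards with LOC1, out of 20019 tested, and 2.98% and 3.18% with LOC3, out of 19790. All 9 members lay above 0 with both strains, between 0.01 and 0.49 with LOC1 and between 0.14 and 0.69 with LOC3. Over all genes, 50.1% lay above 0 with LOC1 and 54.0% with LOC3. The members' signs did not hold in every setting. With LOC1, Parp9 turned to -0.05 under quantile normalization and to -0.03 when only detected probes set the percentile, where Parp3 lay at -7.7e-05. By the mean of all detected probes Parp12 lay at -0.38 and -0.41 and Zc3hav1 with LOC3 at -0.02. The members' median was 0.15 with LOC1, beside 0.002 for all genes, and 0.23 with LOC3, beside 0.033 for all genes. Under quantile normalization it was 0.08 beside 0.02 with LOC1 and 0.14 beside 0.03 with LOC3. The brightest member probes all name a RefSeq mRNA, and only that of Parp8 is dim, whereas all genes include other kinds. Over the array, probes that name a RefSeq mRNA and are not dim had medians of 0.063 and 0.075. With LOC1, 33.5% of all genes lay above the median of the members, and with LOC3 25.4% did. Both comparisons share the LPS array, so a common sign carries the noise of that array in both.

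**Figure D3:**
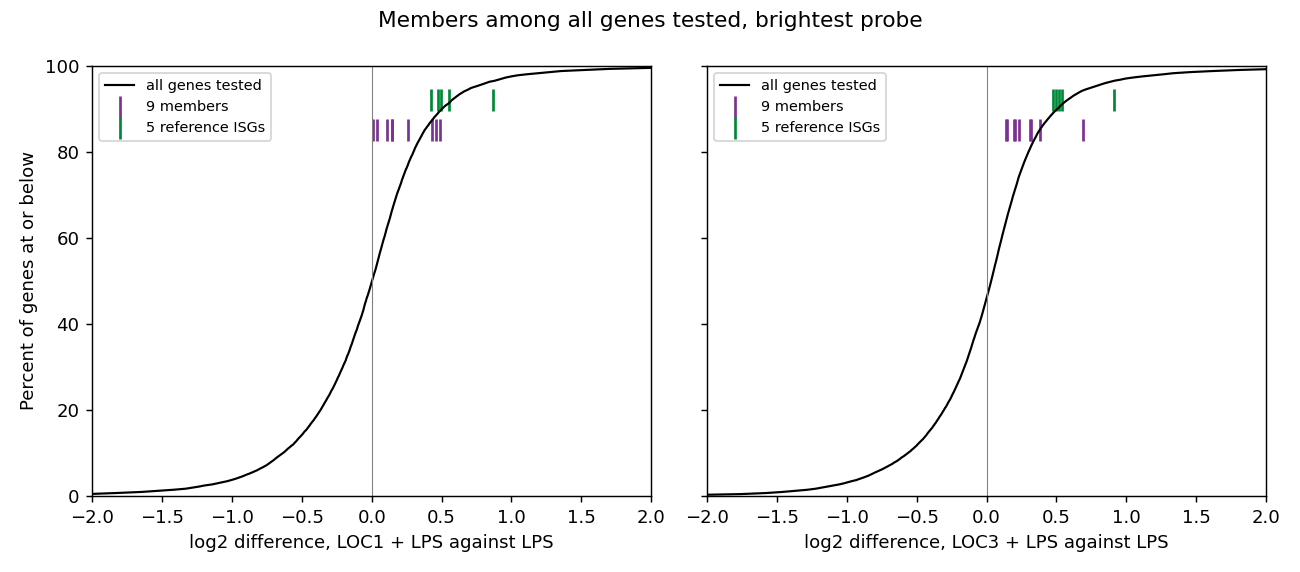
Cumulative share of all genes tested (black curve) against the log2 difference of LOC1 + LPS (left) and LOC3 + LPS (right) from LPS, brightest probe per gene; purple ticks are the 9 members and green ticks 5 reference interferon-stimulated genes, at an arbitrary height. The members lie from 0.01 to 0.49 (left) and from 0.14 to 0.69 (right), in the upper part of the curve but short of 1, the 2-fold threshold.

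Within the chromosome 16 locus the arrays differed little. Parp14 a was at intensities of 55293 with LPS, 56584 with LOC1 + LPS and 59218 with LOC3 + LPS, which after scaling were log2 differences of 0.15 and 0.20. Parp14 b (mm9 chr16:35866315-35866374, minus strand) was at 4120, 3637 and 3887, with differences of -0.07 and 0.02, both within 2 technical SDs. Parp9 a (mm9 chr16:35972577-35972636, plus strand) was at 10898, 10148 and 11183, with differences of 0.01 and 0.14. Those of LOC3 for Parp14 a and Parp9 a exceeded 2 technical SDs, and with LOC1 that of Parp14 a did. The 3 dim Parp9 probes had intensities between 44.9 and 118.7 on the 3 arrays and differences between -0.17 and 0.21, none beyond 2 technical SDs. Dtx3l a was at 9571, 9537 and 10194, with differences of 0.11 and 0.19. Dtx3l b was at 546, 499 and 571, with differences of -0.02 and 0.17. For this locus, then, every probe of 3 genes lay within 0.21 of LPS alone.

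Parp10 a was at 51878, 53026 and 56815, with differences of 0.14 and 0.23. Parp10 b was at 273, 273 and 345, with differences of 0.12 and 0.44, the LOC3 value being 1.36-fold. Parp11 a (mm9 chr6:127443888-127443947, plus strand) was at 921, 1149 and 1120, with differences of 0.43 and 0.39, and both lactobacilli arrays lay above LPS. Parp11 b was at 79.1, 86.8 and 78.7, with differences of 0.25 and 0.10, within 2 technical SDs of a dim probe.

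Parp8 a (mm9 chr13:117643922-117643981, minus strand) was at 183, 237 and 275, lowest with LPS and highest with LOC3 + LPS. Its differences were 0.49 and 0.69, the highest among the brightest probes of the 9 genes with each strain. Among those probes the LOC3 value, 1.61-fold, was the only one past 1.5-fold, where 7.81% of all genes were at least 1.5-fold higher. This depended on the processing. Under normexp the LOC3 value was 0.57, short of 1.5-fold. Under median scaling Parp8 a (0.70), Zc3hav1 a (0.67) and Parp11 a (0.65) were past 1.5-fold with LOC1. Parp8 a is a dim probe, and only its LOC3 difference exceeded 2 technical SDs, by a small margin. Parp3 a (mm9 chr9:106373597-106373656, minus strand) was at 598, 569 and 615, with differences of 0.04 and 0.15, and Parp3 b (mm9 chr9:106372743-106372802, minus strand) was at 509, 458 and 464, with -0.04 and -0.03. Parp3 c was at 56.1, 54.7 and 88.8, so the LOC3 array alone stood higher. Its differences were 0.08 and 0.77, the latter 1.70-fold and past 2 technical SDs for a dim probe. The 2 brighter Parp3 probes did not show that value, and under normexp it was 0.48, short of 1.5-fold. The mm9 spans of Parp3 c and Parp11 b, 567 and 11856 bases for probes of 60 bases, place their ends in separate blocks of the genome.

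Zc3hav1 and Parp12 were the members whose probes lay furthest apart, by more than 1 log2 unit with each strain. Smaller gaps, some with opposite signs, were seen in other members. Zc3hav1 a (mm9 chr6:38255350-38255409, minus strand) was at 18873 with LPS, 23958 with LOC1 + LPS and 21876 with LOC3 + LPS. Its differences were 0.46 and 0.32. Zc3hav1 b (mm9 chr6:38266325-38266384, minus strand) was at 2147, 3029 and 2897, with 0.61 and 0.54, and was 1.53-fold higher with LOC1. Zc3hav1 c (mm9 chr6:38302425-38302484, minus strand) was at 1421, 806 and 708, with -0.70 and -0.90. So probes a and b were lowest on the LPS array and probe c was highest there, and all of these differences exceeded 2 technical SDs. Parp12 a (mm9 chr6:39036828-39036887, minus strand) was at 4737, 5248 and 5474, with differences of 0.26 and 0.31. Parp12 b (mm9 chr6:39040340-39040399, minus strand) was at 185, 84.1 and 78.2, with -1.02 and -1.14, that is 2.03-fold and 2.20-fold lower. Parp12 b was the only member probe past 2-fold in either comparison, 1 of 21 in each, but it lay close to the threshold and the call depended on the scaling. Under median scaling it was at -0.81 and -0.95 and under normexp at -0.63 and -0.69, past 2-fold with neither strain. Under quantile normalization it was at -0.94 and -1.06 and by the deposited ratios at -0.99 and -1.10, past 2-fold with LOC3 only. Of all probes tested, 4.39% were at least 2-fold lower with LOC1 and 3.86% with LOC3.

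The deposited ratios come from the same 3 arrays. Their differences between arrays were apart from those above by the same small amount for every listed member probe. They are therefore no second measurement, and the order of the arrays for these probes could not differ. For Zc3hav1 c the ratios to unchallenged cells were 2.45 with LPS, 1.78 with LOC1 + LPS and 1.58 with LOC3 + LPS, whereas for Zc3hav1 b they were 2.26, 2.90 and 2.83. For Parp12 b they were 4.26, 3.27 and 3.16, and for Parp12 a 3.33, 3.63 and 3.68. All of these probes were listed as higher than in unchallenged cells on every array.

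The array names a RefSeq mRNA for Zc3hav1 a, Zc3hav1 b and Parp12 a, but none for the probes that were lower. Zc3hav1 c was designed on the cDNA AK167137 and Parp12 b on the Ensembl transcript ENSMUST00000129916. On the minus strand, Zc3hav1 c lies 36.1 kb to the 5′ side of Zc3hav1 b, and Parp12 b lies 3.51 kb to the 5′ side of Parp12 a. Whether these bases are exonic or intronic in mm9 was not determined here. The sequences of both, and of Zc3hav1 b for comparison, are given because the direction of the difference depended on which was read; no base is set apart, and all are in lower case.

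Zc3hav1 b: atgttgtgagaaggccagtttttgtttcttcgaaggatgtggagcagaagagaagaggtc
Zc3hav1 c: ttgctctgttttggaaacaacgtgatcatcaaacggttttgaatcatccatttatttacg
Parp12 b: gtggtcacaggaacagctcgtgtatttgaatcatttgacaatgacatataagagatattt

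**Figure D4:**
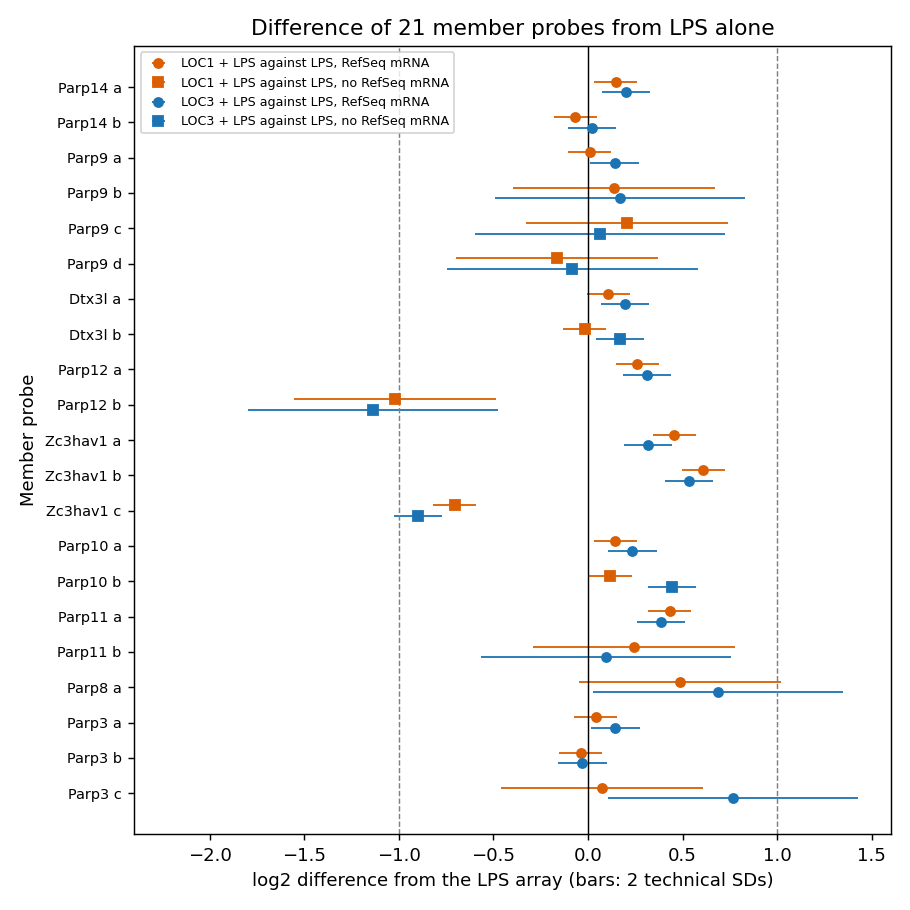
Log2 difference from the LPS array for the 21 member probes well above background, orange for LOC1 + LPS and blue for LOC3 + LPS, circles for probes with a RefSeq mRNA and squares for those without; bars are 2 technical SDs and dashed lines mark 2-fold. Most probes lie between 0 and 0.6, and Parp12 b and Zc3hav1 c lie to the left of 0 with both strains.

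Gaps between the probes of 1 gene were also found outside the members. The highest and lowest probe of a gene were more than 1 log2 unit apart for 2 of 8 members with several detected probes, in each comparison, and for 8.54% (LOC1) and 9.71% (LOC3) of the 6004 such genes on the array. In genes with probes of both kinds, 2248 over the array, the probes without a RefSeq mRNA lay lower than those with one by a median of 0.26 with LOC1 and 0.27 with LOC3, and they lay lower in 71.1% and 70.8% of genes. Zc3hav1 had a gap of -1.24 with LOC1 and -1.33 with LOC3, and Parp12 one of -1.28 and -1.45. Lower gaps than these were found in 3.96% and 3.69% of the genes for Zc3hav1, and in 3.56% and 2.18% for Parp12. In Parp9, Dtx3l and Parp10, which also have both kinds, the gap lay between -0.17 and 0.21. Among probes without a RefSeq mRNA, dim ones had a median difference of -0.17 with LOC1 and -0.16 with LOC3, beside 0.03 and 0.06 for bright ones; Parp12 b is dim and Zc3hav1 c is bright. The part of this array-wide gap in the values of Zc3hav1 c and Parp12 b was not tested.

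**Figure D5:**
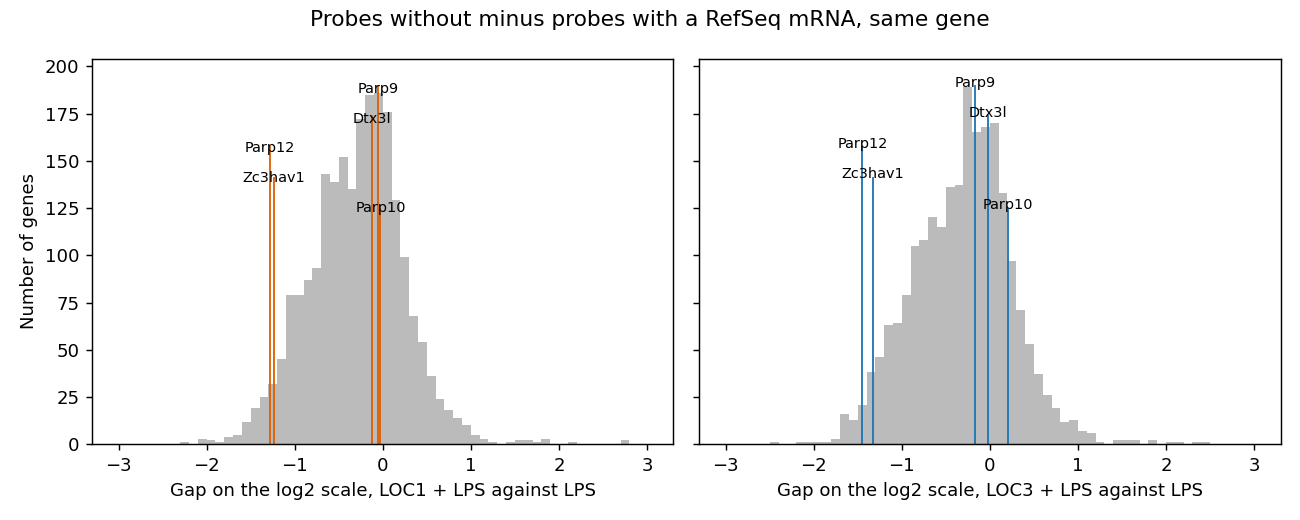
Number of genes by the gap between probes without and probes with a RefSeq mRNA (mean log2 difference of the former minus that of the latter) for LOC1 + LPS (left) and LOC3 + LPS (right) against LPS, in bins of 0.1 over 2248 genes, with values beyond 3 placed in the end bins; coloured lines mark the 5 members with both kinds. The grey distribution is shifted to the left of 0, with Zc3hav1 and Parp12 in its left tail and Parp9, Dtx3l and Parp10 to the right of its median.

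LOC1 and LOC3 were also set against each other. By the brightest probe 0 of 9 members were past 2-fold, where 0.8% of all genes were higher with LOC1 and 1.83% lower, of 19382 tested. The members lay between -0.20, for Parp8, and 0.14, for Zc3hav1, with a median of -0.09 beside -0.02 for all genes. With LOC1, 2 members were higher and 7 lower, where 45.0% of all genes were higher. Of the 21 probes, only Parp3 c was past 1.5-fold, at -0.69, where 3.59% of all probes were at least 1.5-fold lower. Under normexp this dim probe was at -0.37, short of 1.5-fold. Under the main scaling Parp3 c was 1 of 6 probes beyond 2 technical SDs. Of the other 5, Zc3hav1 a, at 0.14, and Zc3hav1 c, at 0.20, lay higher with LOC1. Parp10 b, at -0.33, Dtx3l b, at -0.19, and Parp9 a, at -0.13, lay lower with LOC1.

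Around the members, Ifnb1, the gene of interferon-beta, was far higher with both strains. It was at 1251 with LPS, 29911 with LOC1 + LPS and 18123 with LOC3 + LPS, with differences of 4.69 and 3.96. Ifnar1, a chain of the interferon receptor, was at 2225, 1304 and 1232, with -0.66 and -0.75. Stat2 and Irf9, transcription factors of the type I interferon response, had differences between -0.06 and 0.26 with both strains. The 5 reference interferon-stimulated genes had a median of 0.49 with LOC1 and 0.52 with LOC3, and 0 of them were past 2-fold. Their lowest value was 0.43 with LOC1, above 6 of the 9 members, and 0.48 with LOC3, above 8 of them.

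Of the 8 other ADP-ribosyltransferases, 0 were past 2-fold with either strain, and 7 lay above 0 with each, as did the members. Over all genes 50.1% lay above 0 with LOC1 and 54.0% with LOC3. The medians of these 8 transferases were 0.16 and 0.15. Parp4, the vault transferase, was highest at 0.65 with LOC1 and 0.55 with LOC3, and Parp1 was lowest at -0.53 and -0.52. Readers and erasers of ADP-ribose had medians of 0.08 and 0.07 and 0 of 10 past 2-fold. Of the 11 genes of NAD supply and use that were tested, 1 was at least 2-fold lower with LOC1, Nmrk1, a nicotinamide riboside kinase, from a dim probe just at the threshold, and 0 were past 2-fold with LOC3. Nampt had 0.35 and 0.38. The 4 partners of the antiviral members lay between -0.15 and 0.37 with both strains.

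Over the 3 arrays the profile of Parp9, by its brightest probe, was nearest to those of Gm26808, Isy1, Copb2 and Notch2 among named genes, by the distance between the pairs of differences from LPS, over 17404 genes well above background on all 3 arrays. Its partner Dtx3l ranked 1905 in that order and Parp3 ranked 114. With 3 arrays and values this close to 0, many genes lie as near.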

How the data were processed

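Expression of the 9 genes was measured on 3 1-colour Agilent arrays of RAW264.7 macrophages, 1 per group (LPS, LOC1 + LPS, LOC3 + LPS), grouped by the treatment given in the labels. The intensity of each spot was deposited by the authors after background subtraction in Feature Extraction, and was not normalized between arrays. Log2 ratios to unchallenged cells, made in GeneSpring, were also deposited, with values under 2-fold left blank. Their scaling of the arrays is not given in the sources used here.

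Outlier spots were left out (135, 118 and 133 on the 3 arrays), spots of a probe were averaged, and log2 intensity less the 75th percentile over all spots of the array that are no controls was compared between arrays. The brightest probe stood for its gene. Genes detected (well above background) on either array of a pair were tested, with lower signals raised to the lowest intensity well above background. Genes called were those at least 2-fold apart. With 1 array per group no test between groups was possible, and the number of arrays limits the precision. The methods' t-test was not run for this reason. Probes are placed by the mm9 positions in the files; gene order and promoters come from RefSeq GRCm38.p6. Python 3.11.15, numpy 2.4.6, pandas 2.3.3 and matplotlib 3.10.9 were used, with limma 3.58.1 in R 4.3.3 for normexp (offset 50) and quantile normalization. The procedure was tested on simulated data.

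The members and gene lists were chosen with earlier results of these data known. Members, other ADP-ribosyltransferases, readers and erasers, NAD genes, partners, interferon signal genes, reference interferon-stimulated genes, cell type markers and the 5 genes nearest to Parp9 formed the set of named genes; gene neighbours and the comparison of probes with and without a RefSeq mRNA were added after the values were seen. Alternatives tried were median scaling, a percentile over detected probes, quantile normalization, normexp, the mean of detected probes, detection on both arrays, no filter with no floor, outlier spots kept, a 1.5-fold threshold and the deposited ratios.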

Additional observations from a re-analysis of the deposited data

Results flagged for a closer look

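Among the member probes well above background on all 3 arrays, 2 differed from LPS in opposite directions with the 2 strains. Parp14 b lay at -0.0673 with LOC1 and 0.0198 with LOC3, and Dtx3l b at -0.0171 with LOC1 and 0.169 with LOC3. With 1 array per group the difference between the strains was not tested. For Parp14 b both values lay within 2 technical SDs of 0, and for Dtx3l b only that of LOC3 lay beyond them. In the brightest probes of both genes the values were above 0 with both strains. The opposite signs depended on the scaling. Under median scaling Parp14 b was at 0.15 and 0.20 and Dtx3l b at 0.20 and 0.35. Under quantile normalization Parp14 b was at -0.12 and -0.05, while Dtx3l b kept opposite signs. By the deposited ratios Dtx3l b was at 0.02 and 0.21. Under normexp both probes kept opposite signs.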

How the results depend on the processing

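The count of members past 2-fold was 0 of 9 in each comparison between arrays and stayed 0 under median scaling, the percentile over detected probes, quantile normalization, normexp, the mean of detected probes, detection on both arrays, no filter with no floor, and outlier spots kept, and it was 0 of the 6 members whose brightest probe is listed by the deposited ratios. The latter differ from the main values only by a constant in each comparison, so they are no independent check. At 1.5-fold, under the main scaling, the count was 1 with LOC3 (Parp8) and 0 in the other comparisons. Under median scaling Parp8, at 0.70, Zc3hav1, at 0.67, and Parp11, at 0.65, were past 1.5-fold with LOC1. Under normexp Parp8 with LOC3 was at 0.57, short of 1.5-fold. The count of members listed as higher with LPS was 9 with the dim side raised to the limit and 6 by the brightest probe only. Median scaling subtracts a constant from each array. It moved the median of all genes to 0.22 with each strain and the members' median to 0.36 and 0.42. The gap of 0.14 and 0.20 between them could therefore not change. Under quantile normalization that gap was 0.07 with LOC1 and 0.11 with LOC3, and under normexp 0.11 and 0.17. By the mean of detected probes it was 0.07 and 0.18, and with no filter and no floor 0.18 and 0.06. By the mean of detected probes Parp12 lay at -0.38 and -0.41, because its 2 probes disagree. Of 234 single values recomputed from the brightest probes, 84 were identical, mostly because detection on both arrays, no filter and kept outliers left these probes as they were; of the other 150, 108 moved by less than the technical SD and 42 by more. In all, 7 changed sign (Parp9, Parp3, Parp12 and Zc3hav1). In an alternative chosen after seeing the data, all detected probes were rescaled: with LOC1 and LOC3, 0 and 0 of 21 were past 2-fold under median scaling and under normexp, 0 and 1 under quantile normalization, and 1 and 1 under the percentile over detected probes. No paired analysis was possible because each group has 1 array, and leaving out a replicate was not possible for the same reason. Ratios of dim probes are limited by background: 2 of the 16 listed are bounds.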
